A study of Homo sapiens with 3 samples.

Results

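The ETS transcription factors described here are 10 genes of one family, ETV1, ETV4, ETV5, ETS1, ETS2, ELK1, ELK3, ELK4, ERG and FLI1. They were chosen by name, as family members that respond to the kinase ERK or are fused to other genes in prostate cancer, and were matched by Ensembl identifier. Of the 10, 8 had a row among the 23379 genes of the deposited tables; ERG (ENSG00000157554) and FLI1 (ENSG00000151702) had none and were counted as 0. RNA had been sequenced from cells labelled DU145, an established line grown from a metastasis of a human prostate carcinoma. There were 3 libraries, 1 for each group: cells overexpressing wild-type BRAF (WT), cells given plasmids for the BRAF mutant L597R (L597R), and negative control cells (P-Enter). BRAF is the kinase between RAS and MEK, and L597R exchanges a single amino acid in its kinase domain. The labels give no clone, time after transfection or promoter of the plasmids.

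ETS factors share a DNA-binding domain that recognises a GGAA core in DNA, and ERK phosphorylates several of them. ELK1, ELK3 and ELK4 are the ternary complex factors: with the serum response factor SRF they bind the control regions of immediate-early genes and carry ERK signals to them. ETV1, ETV4 and ETV5 form the PEA3 group, whose own transcription is held down by the repressor CIC until ERK signalling relieves it. In prostate tumours ERG, and less often ETV1, ETV4, ETV5, ELK4 or FLI1, can be joined to the control region of an androgen-driven gene such as TMPRSS2.

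The values are FPKM, reads scaled to the length of the gene and to the counted reads of the library, so levels of different genes can be set side by side. They rested on 15665132 counted reads in WT, 16603676 in L597R and 13294004 in P-Enter, totals worked out from the values, and whole reads were recovered for 22626 genes, all 8 listed members among them. With 1 library per group no difference has a replicate check or a p-value. Intervals are exact 95% intervals that cover counting error only, and they compare these libraries, not the conditions. BRAF had 4.41 FPKM in WT, 9.59 in L597R and 1.65 in P-Enter, so an effect of the mutation and one of more BRAF RNA cannot be told apart. Nothing in the labels gives separate cultures or a batch. Of the cell type markers, VIM, CDH2, ZEB1 and FN1 were all listed and summed to 146 to 152 FPKM per library. Among epithelial markers KRT18 was at 34.3 to 37.6 FPKM, KRT8 stayed under 1 FPKM, KRT19 had at most 3 reads and CDH1 at most 1 in any library, and EPCAM had no row, so most epithelial markers were absent or nearly so. DU145 is known to express CDH1, EPCAM and KRT19, so these values go against the label, and every level below is that of the cells labelled DU145. Of the prostate luminal markers, KLK3, TMPRSS2 and FOLH1 had no row either.

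Among the members ETS1 had the highest level, followed by ELK3 and ELK1; of the other family genes ERF lay above ELK1 in every library and above ELK3 in P-Enter. Of the 10 members, 7 had a mean of at least 1 FPKM over the 3 libraries. The 28 genes of the human ETS family had rows for 18, which summed to 209 FPKM in WT, 218 in L597R and 209 in P-Enter. ETS1 alone made up 32.9% of that sum in WT, 32.8% in L597R and 31.1% in P-Enter. The 3 ternary complex factors together made up 29.8%, 30.4% and 28.6% in the same order of libraries, and the PEA3 group 7.74%, 7.37% and 8.30%. The order of the members by level was the same in all 3 libraries: ETS1, ELK3, ELK1, ETV5, ELK4, ETV1, ETV4 and ETS2.

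**Figure D1:**
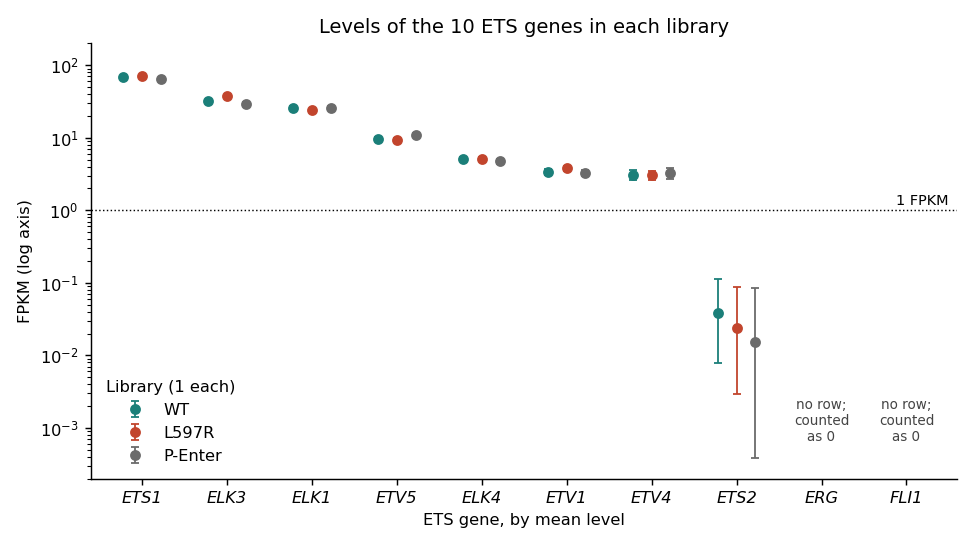
FPKM on a log axis for the 10 members, ordered by mean level, with 1 point per library (WT, L597R and P-Enter left to right) and exact Poisson 95% intervals that cover counting error only. ETS1 sits between 65.0 and 71.5 FPKM, 7 members lie above the dotted line at 1 FPKM, ETS2 lies far below it and ERG and FLI1 had no row.

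Most neighbours in that order were separated by more than counting error. The FPKM of ETS1 was 2.16 times that of ELK3 in WT (95% interval 2.06 to 2.27), 1.92 times in L597R (1.84 to 2.01) and 2.19 times in P-Enter (2.08 to 2.31). ELK3 exceeded ELK1 by 1.24 times in WT (1.16 to 1.33), 1.55 times in L597R (1.45 to 1.65) and 1.16 times in P-Enter (1.08 to 1.25). ETV1 and ETV4, by contrast, could not be ordered in WT (FPKM ratio 1.09, 0.918 to 1.31) or in P-Enter (1.01, 0.840 to 1.23). In L597R ETV1 lay above ETV4 (1.25, 1.06 to 1.49). Their GC content differs, at 40.1% for ETV1 and 60.3% for ETV4, and differences between the libraries followed GC content, as given below. With that trend removed, the ratios in L597R against P-Enter were 0.947 for ETV1 (0.834 to 1.07) and 1.06 for ETV4 (0.852 to 1.33). ELK3 and ELK1 also differ in GC content, at 44.7% and 57.9%. With the trend removed, their ratios in L597R against P-Enter were 1.18 (1.11 to 1.25) and 1.06 (0.978 to 1.15). No trait of L597R is read from this order.

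Between libraries, no member passed the size rule, a difference of at least 1 in log2(FPKM + 1) with a mean of at least 1 FPKM. In WT against P-Enter the count was 0 of the 7 members that passed the filter, where 0.978% of 10639 genes passed the rule. It was likewise 0 of 7 in L597R against P-Enter, against 0.808% of genes, and 0 of 7 in L597R against WT, against 0.724%. The members' differences ran between -0.21 and 0.32 on that scale. Their median was 0.03 in WT against P-Enter, 0.08 in L597R against P-Enter and 0.00 in L597R against WT, where the medians of all 10639 genes were 0.00, -0.01 and 0.01. In bulk RNA fewer expressing cells and less RNA per cell cannot be told apart.

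Smaller differences were visible in the reads. In WT against P-Enter the interval of the read ratio lay above 1 for 2 of the 8 listed members (ETS1 and ELK3) and below 1 for 1 (ETV5). Among all genes with reads, 15.6% had an interval that left out 1 (7.94% above and 7.67% below), and among genes of at least 1 FPKM 26.1% did. In L597R against P-Enter it lay above 1 for 3 members (ETS1, ELK3 and ETV1) and below 1 for 1 (ETV5), beside 27.7% of all genes (13.9% above and 13.7% below) and 49.5% of those of at least 1 FPKM. In L597R against WT it lay above 1 for 2 members (ETS1 and ELK3) and below 1 for 0, beside 21.6% of all genes (12.3% above and 9.32% below) and 38.5% of those of at least 1 FPKM. With shares this high among other genes, the counts alone are no result about the members. Both comparisons with P-Enter share that library.

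Differences between the libraries also followed GC content over the whole transcriptome. Across 9329 protein-coding genes the Spearman correlation of GC content with the log2 difference was -0.46 in WT against P-Enter, -0.70 in L597R against P-Enter and -0.60 in L597R against WT; genes are not independent replicates. Coding genes with 40 to 45% GC had a median difference of 0.16 in L597R against P-Enter, and those with 55 to 60% GC one of -0.14. Over the 7 members with at least 1 FPKM, which share these libraries, the correlation was -0.57, -0.61 and -0.64 in the 3 comparisons. A regression with length, GC content and level as terms took up 19.0%, 49.7% and 32.9% of the variance, and ratios with its value removed are given beside the members below. What lies behind this trend was not tested.

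**Figure D2:**
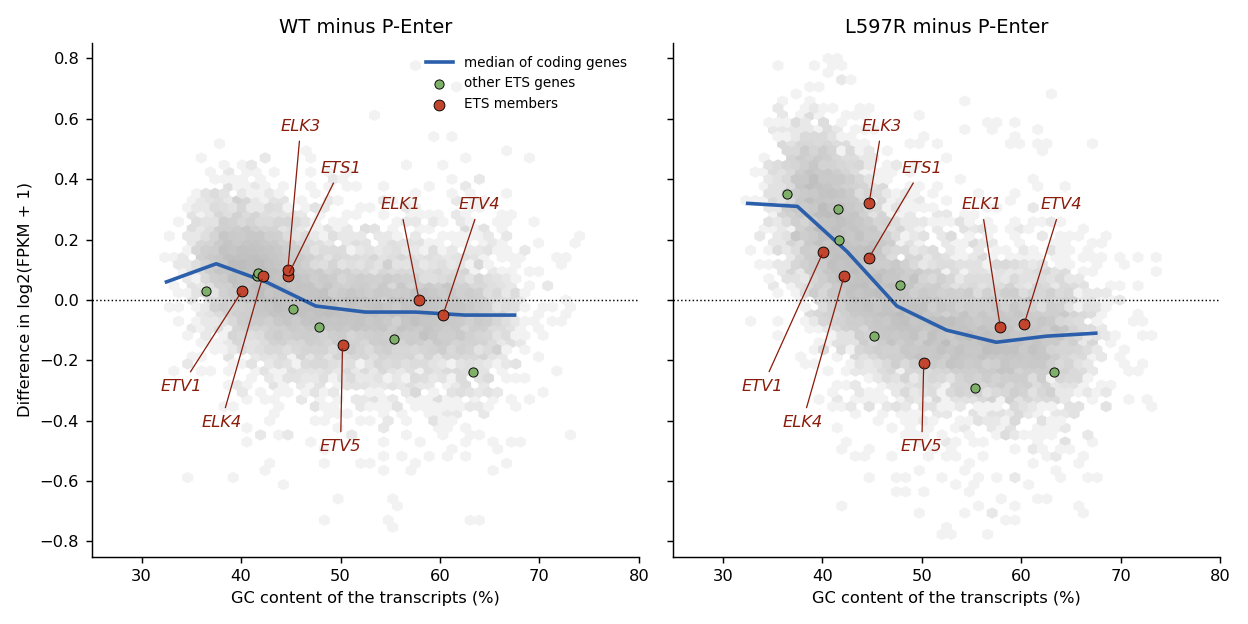
Difference in log2(FPKM + 1) against the GC content of a gene's transcripts, for WT minus P-Enter (left) and L597R minus P-Enter (right). Grey cells are protein-coding genes (20 and 18 of 9329 lie outside the axis), the blue line is their median in steps of 5% GC, red points are the 7 members with at least 1 FPKM and green points other ETS genes. In the right panel ELK3, at 0.32, lies above the line at its GC content and ETV5, at -0.21, below it.

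ELK3 (ENSG00000111145), a ternary complex factor that represses its targets until ERK phosphorylates it, had the largest difference of the 7 members with at least 1 FPKM in both comparisons of L597R; in WT against P-Enter ETV5 differed more. It was at 31.8 FPKM in WT, 37.1 in L597R and 29.6 in P-Enter, from 2311, 2864 and 1829 reads. The L597R library was thus the highest and P-Enter the lowest. The read ratio was 1.25 in L597R against P-Enter (1.18 to 1.33), 1.17 in L597R against WT (1.11 to 1.24) and 1.07 in WT against P-Enter (1.01 to 1.14). With the trend removed it was 1.18 (1.11 to 1.25) in L597R against P-Enter and 1.12 (1.06 to 1.18) in L597R against WT, and in WT against P-Enter the interval then held 1 (1.05, 0.988 to 1.12). The difference of 0.32 in L597R against P-Enter was above that of 87.8% of the 10639 genes, and with the trend removed above that of 94.2% of coding genes. The gene spans 96194382 to 96269835 of chromosome 12 (plus strand, GRCh38), and its transcripts have 44.7% GC.

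ELK1 (ENSG00000126767), the factor on which the ternary complex at the FOS gene was first worked out, had intervals that held 1 in all 3 comparisons. It was at 25.6 FPKM in WT, 24.0 in L597R and 25.5 in P-Enter, from 1361, 1352 and 1152 reads. The interval of WT against P-Enter held 1 (read ratio 1.0, 0.926 to 1.09), and in L597R against P-Enter the ratio of 0.940 had an interval that held 1 (0.868 to 1.02). Its transcripts, from 47635521 to 47650604 of chromosome X (minus strand), have 57.9% GC, and with the trend removed its ratio in L597R against P-Enter was 1.06 (0.978 to 1.15).

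ELK4 (ENSG00000158711), also known as SAP-1 and found as a read-through transcript with SLC45A3 in prostate cancer, was lower than its relatives. It was at 5.06 FPKM in WT, 5.08 in L597R and 4.74 in P-Enter, from 967, 1029 and 768 reads. Its ratio against P-Enter was 1.07 both in WT (0.971 to 1.18) and in L597R (0.976 to 1.18), with intervals that held 1. SLC45A3, its neighbour in those read-through transcripts, was at 1.29, 1.57 and 1.54 FPKM in WT, L597R and P-Enter. MFSD4A overlaps ELK4 on the opposite strand over 422 exon bases and had 10 reads in WT, 4 in L597R and 1 in P-Enter. The gene spans 205597556 to 205631962 of chromosome 1, minus strand.

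The promoters of the 3 ternary complex factors are shown because these relatives share a function while their levels and differences did not run together. Each window runs from 250 bases before to 50 bases after the RefSeq start, at chr12:96194125-96194424 (plus strand), chrX:47650555-47650854 (minus) and chr1:205631962-205632261 (minus) of GRCh38.p14. Capitals mark the ETS core GGAA, or its reverse complement TTCC, and where present the CIC octamers TGAATGAA and TGAATGGA on either strand.
ELK3: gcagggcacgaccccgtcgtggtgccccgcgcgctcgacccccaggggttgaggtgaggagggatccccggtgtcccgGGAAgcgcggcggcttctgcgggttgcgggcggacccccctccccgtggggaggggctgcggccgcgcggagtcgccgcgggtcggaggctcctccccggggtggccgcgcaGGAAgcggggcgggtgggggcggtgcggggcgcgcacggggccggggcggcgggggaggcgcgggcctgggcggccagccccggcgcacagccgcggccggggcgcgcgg
ELK1: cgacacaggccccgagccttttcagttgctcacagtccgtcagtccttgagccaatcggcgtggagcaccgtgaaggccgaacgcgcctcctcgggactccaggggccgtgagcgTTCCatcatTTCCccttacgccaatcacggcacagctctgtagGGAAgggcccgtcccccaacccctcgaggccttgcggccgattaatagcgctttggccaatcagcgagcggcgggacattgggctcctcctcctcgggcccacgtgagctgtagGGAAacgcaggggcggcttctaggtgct
ELK4: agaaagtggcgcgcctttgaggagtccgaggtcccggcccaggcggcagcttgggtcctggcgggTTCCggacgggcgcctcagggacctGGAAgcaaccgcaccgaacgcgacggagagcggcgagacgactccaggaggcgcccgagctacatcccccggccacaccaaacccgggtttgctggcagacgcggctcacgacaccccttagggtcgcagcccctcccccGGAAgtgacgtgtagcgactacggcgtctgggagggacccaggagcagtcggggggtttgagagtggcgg
The ELK3 window held 2 GGAA cores on either strand, that of ELK1 held 4 and that of ELK4 held 3. This core is common, since 95.5% of 35116 promoter windows of the same length hold it, with a median of 3. The longer CCGGAA, which contains the core, matched the ELK4 window at 2 places and the other windows at 0; 17.2% of all windows hold it. The ELK3 window had a GC content of 83.7% and 5 matches to GGGCGG, the letters of a GC box, which 45.0% of windows hold. The CArG box, the site of SRF, matched none of the 3 windows and 1.29% of all, and the AP-1 motif TGANTCA none of them and 7.71% of all. ELK3 has a further RefSeq window inside the gene, not shown.

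ETS1 (ENSG00000134954) was the most abundant member in every library. The protein binds together with RUNX1 and other partners, is a target of ERK phosphorylation and is known for its part in invasion of carcinoma cells. It was at 68.7 FPKM in WT, 71.5 in L597R and 65.0 in P-Enter, from 7696, 8485 and 6178 reads, a level above 97.2 to 97.5% of all listed genes. P-Enter was the lowest of the 3 libraries and L597R the highest. The read ratio was 1.06 in WT against P-Enter (1.02 to 1.09), 1.10 in L597R against P-Enter (1.06 to 1.14) and 1.04 in L597R against WT (1.01 to 1.07). With the trend removed all 3 intervals held 1, with ratios of 1.03, 1.03 and 1.0. ETS1 (chromosome 11, 128458761 to 128587558, minus strand) has transcripts of 44.7% GC, as ELK3 does.

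ETS2 (ENSG00000157557), the closest relative of ETS1, was almost without reads. There were 3 reads in WT, 2 in L597R and 1 in P-Enter, or 0.0385, 0.0242 and 0.0151 FPKM. The interval of every ratio held 1, from 0.204 to 134 in WT against P-Enter, so a difference was not detectable at this depth. ETS2 lies on chromosome 21 from 38805307 to 38824955. These cells thus carried the RNA of one gene of the pair and next to none of the other.

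ERG and FLI1, which are expressed mainly in endothelial and blood cells and become fusion genes in tumours, had no row in the tables. Markers of those cells were close to 0 as well: PECAM1, CDH5 and VWF together came to 0.033 FPKM in WT, 0.148 in L597R and 0.154 in P-Enter, and TEK had no row. PTPRC, the pan-leukocyte marker, had 1 read in WT, 0 in L597R and 3 in P-Enter. Of the genes known as fusion partners at the 5′ end, TMPRSS2 and KLK2 had no row. The other listed partners, SLC45A3, NDRG1, HNRNPA2B1, HERPUD1, CANT1 and ACSL3, all had rows and were between 1.29 FPKM for SLC45A3 in WT and 124 FPKM for HNRNPA2B1 in L597R. FPKM per gene does not show a fusion transcript, so no fusion was tested for. Of the 8 fusion partners 6 had rows and 0 passed the size rule; the interval lay above 1 for 2 and below 1 for 0 in WT against P-Enter, and for 2 and 1 in each of the other comparisons, with median differences of 0.00, 0.02 and 0.09. Beside these 2 or 3 of 6 genes stand 15.6%, 27.7% and 21.6% of all genes with reads, and 26.1%, 49.5% and 38.5% of those of at least 1 FPKM. Beside the 0 of the size rule stand 0.978%, 0.808% and 0.724% of 10639 genes. ACSL3, a partner of ETV1, was at 5.89 FPKM in WT, 6.51 in L597R and 5.1 in P-Enter.

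ETV5 (ENSG00000244405) was the highest of the PEA3 group and the only member with an interval below 1. It was at 9.72 FPKM in WT, 9.29 in L597R and 10.9 in P-Enter, from 879, 890 and 834 reads. P-Enter was the highest library, and WT and L597R lay close together (L597R against WT 0.955, 0.869 to 1.05). The read ratio was 0.894 in WT against P-Enter (0.813 to 0.984) and 0.854 in L597R against P-Enter (0.777 to 0.940). With the trend removed it was 0.890 (0.809 to 0.979) in L597R, while in WT the interval reached 1 (0.912, 0.828 to 1.0). Its difference in L597R against P-Enter was lower than that of most genes, with 13.8% of the 10639 genes lower still. ETV5 (chromosome 3, 186046308 to 186110318, minus strand) has transcripts of 50.2% GC and shares 164 exon bases with DGKG, which had no row.

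ETV4 (ENSG00000175832), the PEA3 protein itself, had few reads and wide intervals. It was at 3.09 FPKM in WT, 3.02 in L597R and 3.23 in P-Enter, from 170, 176 and 151 reads. The ratio was 0.955 in WT against P-Enter (0.763 to 1.20) and 0.933 in L597R against P-Enter (0.747 to 1.17), so a difference was not detectable at this depth. Its gene, on chromosome 17 from 43527844 to 43579620, overlaps the helicase gene DHX8 on the opposite strand over 68 exon bases. DHX8 had 1544 reads in WT, 1419 in L597R and 1315 in P-Enter. The strand setting of the counting is not given in the sources used here, so reads in the shared bases cannot be assigned with certainty.

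ETV1 (ENSG00000006468), which is also a fusion gene in prostate cancer, was at 3.38 FPKM in WT, 3.78 in L597R and 3.28 in P-Enter, from 509, 603 and 419 reads. L597R was the highest library. The ratio was 1.03 in WT against P-Enter (0.904 to 1.18) and 1.15 in L597R against P-Enter (1.02 to 1.31). ETV1, from 13891228 to 13991425 of chromosome 7 (minus strand), has the lowest GC content of the members, 40.1%, and with the trend removed the ratio in L597R turned to 0.947 (0.834 to 1.07). The PEA3 group summed to 16.2 FPKM in WT, 16.1 in L597R and 17.4 in P-Enter. The ratios of ETV1 and ETV5 in L597R against P-Enter thus lay on opposite sides of 1 as deposited, and both below 1 with the trend removed, where the interval of ETV1 held 1.

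**Figure D3:**
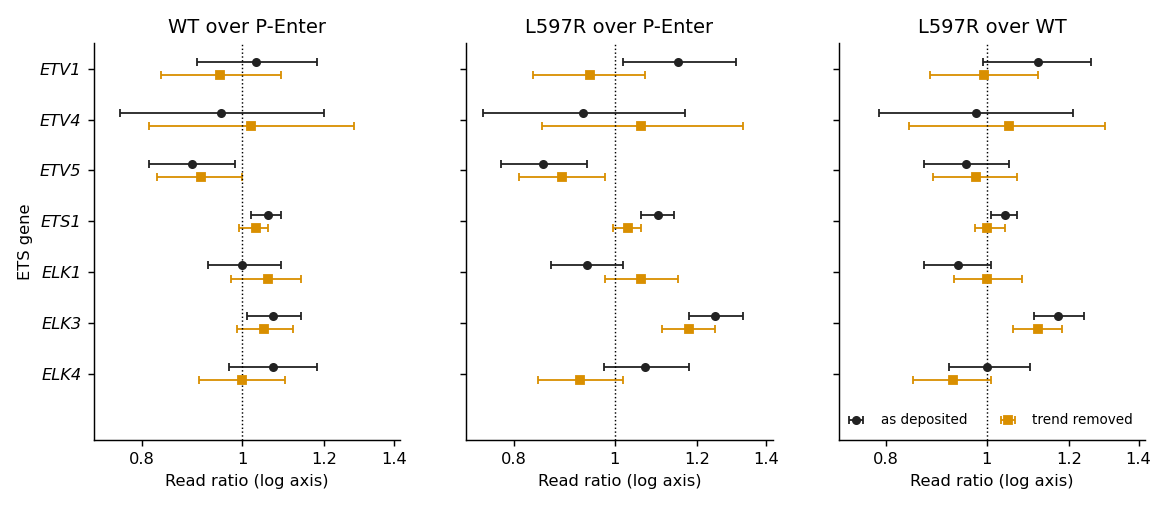
Read ratios (log axis) with exact 95% intervals of counting error for the 7 members with at least 1 FPKM, in WT over P-Enter, L597R over P-Enter and L597R over WT; black circles are ratios from the recovered reads, orange squares the same with the value of that regression removed. ELK3 in L597R lies above 1 in both forms (1.25 and 1.18 against P-Enter), while ETV1 lies at 1.15 in the first form and at 0.947 in the second.

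The promoter window of ETV1 whose start is that of the annotated gene, at chr7:13991376-13991675 on the minus strand of GRCh38.p14, is shown because it holds an octamer bound by CIC. Capitals mark the same letters as above.
ETV1: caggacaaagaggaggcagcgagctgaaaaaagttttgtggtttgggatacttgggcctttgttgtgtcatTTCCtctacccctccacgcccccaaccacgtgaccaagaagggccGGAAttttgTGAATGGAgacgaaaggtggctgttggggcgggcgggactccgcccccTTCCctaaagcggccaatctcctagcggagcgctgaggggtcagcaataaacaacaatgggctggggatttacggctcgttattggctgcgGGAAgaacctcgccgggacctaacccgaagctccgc
The octamer TGAATGGA begins 125 bases before the start and is found in 1.03% of all windows; TGAATGAA, found in 1.65%, has no match here. A GGAA core, part of a CCGGAA, lies just before it, and the window holds 4 GGAA cores in all. The other 5 RefSeq windows of ETV1 hold neither octamer. RefSeq windows were matched for ETV1, ETS2, ELK1, ELK3, ELK4 and ERG. CIC was at 9.13 FPKM in WT, 8.91 in L597R and 8.95 in P-Enter (ratios against P-Enter 1.02, 0.947 to 1.10, and 0.996, 0.926 to 1.07). It was named after its values were seen, because of this octamer.

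The other ETS genes stayed under the size rule as well. Of 18 further family genes 10 had rows and 7 a mean of at least 1 FPKM, and 0 passed the size rule in any comparison. The rule called 0.978%, 0.808% and 0.724% of all 10639 genes in the 3 comparisons. With shares this low, a count of 0 is no result about these genes. In WT against P-Enter the interval lay above 1 for 0 and below 1 for 1, in L597R against P-Enter for 3 and 2, and in L597R against WT for 2 and 1. Over all genes with reads the interval left out 1 for 15.6%, 27.7% and 21.6%, and over those of at least 1 FPKM for 26.1%, 49.5% and 38.5%, so nothing is read from these counts. Their median differences were -0.03, 0.05 and 0.11. ERF, a repressor that ERK sends out of the nucleus, was the highest of them and lower in both BRAF libraries, at 26.2 FPKM in WT, 26.2 in L597R and 31.2 in P-Enter (ratios 0.839, 0.778 to 0.906, and 0.841, 0.780 to 0.906). GABPA, which drives genes of mitochondrial function, was at 6.99 FPKM in WT, 9.0 in L597R and 6.83 in P-Enter, and was higher in L597R than in P-Enter (1.32, 1.18 to 1.47). ELF1 was also higher in L597R than in P-Enter, at 9.95 against 7.93 FPKM (1.26, 1.12 to 1.41), as was ELF2, at 3.60 against 3.01 (1.19, 1.04 to 1.37). ELF4 was lower, at 8.63 against 10.7 FPKM (0.804, 0.725 to 0.891). ETV3 was at 5.48 FPKM in WT, 5.08 in L597R and 5.62 in P-Enter. GABPA has 36.5% GC and ERF 63.3%. In L597R against P-Enter GABPA differed by 0.35, where coding genes with 35 to 40% GC had a median of 0.31. ERF differed by -0.24, where those with 60 to 65% GC had a median of -0.12. Over the 14 ETS genes of at least 1 FPKM the correlation of GC content with the difference was -0.82 in that comparison. ELF3, ELF5 and SPDEF, factors typical of epithelia, and SPI1, SPIB and SPIC of blood cells had no row; EHF had 1 read in P-Enter.

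**Figure D4:**
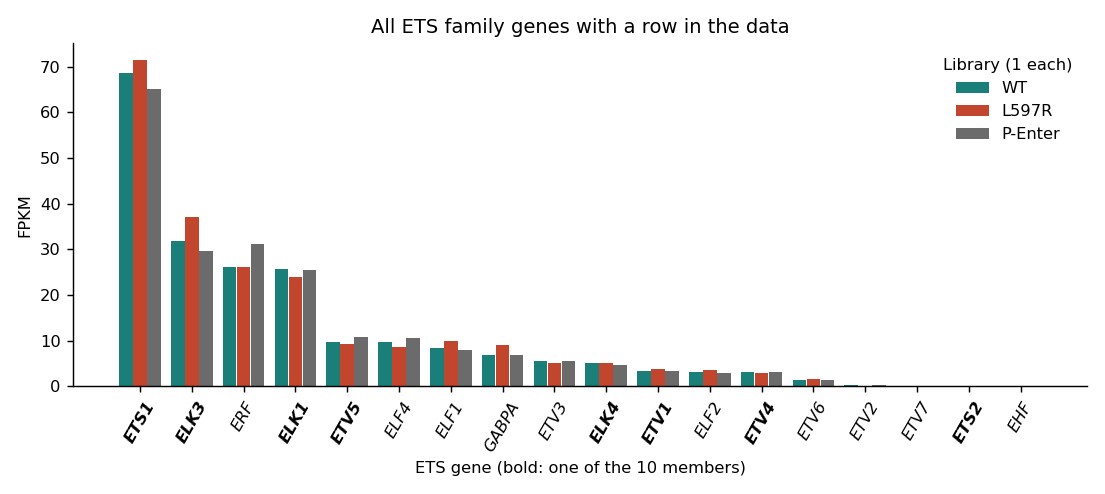
FPKM of the 18 ETS family genes with a row, ordered by mean level, with 1 bar per library (WT, L597R and P-Enter left to right, 1 library each, no error bars); members are in bold. ETS1 stands at 65.0 to 71.5 FPKM, followed by ELK3, ERF and ELK1, and ETV2, ETV7, ETS2 and EHF are near 0.

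Genes of proteins that act on the members stayed under the size rule too. Of 16 regulators and partners all had rows and 14 passed the filter, and 0 passed the size rule in any comparison. That rule called only 0.978%, 0.808% and 0.724% of all 10639 genes, so a count of 0 is no result about this list. The interval lay above 1 for 2 and below 1 for 2 in WT against P-Enter, for 2 and 4 in L597R against P-Enter, and for 1 and 2 in L597R against WT, with median differences of 0.00, 0.01 and 0.01. These are 4, 6 and 3 of 16 genes, beside 15.6%, 27.7% and 21.6% of all genes with reads and 26.1%, 49.5% and 38.5% of those of at least 1 FPKM. MAPK3, which encodes ERK1, was at 20.7 FPKM in WT, 18.5 in L597R and 21.0 in P-Enter, and its read ratio in L597R against P-Enter was 0.883 (0.810 to 0.961). SRF, the partner of the ELK proteins, was at 18.8 FPKM in WT, 19.1 in L597R and 20.8 in P-Enter. Its ratios against P-Enter were 0.900 (0.830 to 0.976) in WT and 0.916 (0.846 to 0.992) in L597R. SRF has 60.9% GC and MAPK3 60.8%. Coding genes with 60 to 65% GC had a median difference of -0.12 in L597R against P-Enter, where SRF had -0.12 and MAPK3 -0.17. In WT against P-Enter that median was -0.05, and SRF had -0.14 and MAPK3 -0.02. ATXN1L, which stabilises CIC, was at 15.5 FPKM in WT, 14.2 in L597R and 16.1 in P-Enter. The coactivators EP300 and CREBBP were at 13.7 and 11.2 FPKM in WT, 14.1 and 10.7 in L597R and 13.8 and 11.7 in P-Enter. MED23, the Mediator subunit that binds phosphorylated ELK1, was higher in L597R than in P-Enter, at 6.04 against 4.18 FPKM (1.44, 1.28 to 1.63), and in WT it was at 5.27. It was named after its values were seen and has 41.7% GC.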

How the data were processed

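RNA sequencing of 3 DU145 libraries, 1 each for WT, L597R and P-Enter, was used. The labels' protocols name Trizol extraction and a stranded mRNA library kit. HISAT2, HTSeq, Cufflinks and Trimmomatic on hg38/GRCh38 are named, without versions, per the submitters' processing notes; the strand setting of the counting is not given in the sources used here. The deposited values are FPKM for Ensembl genes, per the file headers. Symbols came from a gene name table, annotation (position, length, GC content) from GENCODE 29 on GRCh38, and promoters from RefSeq on GRCh38.p14.

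Whole reads and library totals were recovered from the FPKM values within a tolerance of 1e-05, which worked for 96.8% of genes. Of the recovered genes 49.0% had exactly the annotated exon length. Recovered reads summed to 100.4% of the total in every library, so some recovered counts can be too high. The recovery step was tested on simulated data. Levels have exact Poisson intervals and read ratios exact Clopper-Pearson intervals at 95%, given the summed reads of both libraries. They cover counting error only, because each group had 1 library. PCR copies are not independent molecules, so even that error can be understated. The depth of 13294004 to 16603676 reads per library sets their width. No count model was fitted.

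The size rule was a difference of at least 1 in log2(FPKM + 1), which understates the change of low genes, and a mean of at least 1 FPKM. The regression, over protein-coding genes, had length, mean FPKM (both as logs) and GC content as cubic terms. All members are named, and at most 6 genes from each of 4 further lists, those past the size rule first and then the highest; BRAF, markers, overlapping genes, genes without a row or with few reads, and those said to be named after their values were seen are outside this limit. Some genes of these lists are not reported here. Members and lists were chosen with earlier results of these data known. Alternatives were other pseudocounts, filters, thresholds, interval levels, rescaling and the regression. Software was Python 3.11.15, with scipy 1.17.1, numpy 2.4.6, matplotlib 3.10.9 and pandas 2.3.3.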

Additional observations from a re-analysis of the deposited data

How the results depend on the processing

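No member passed the size rule, in any of the 3 comparisons, under pseudocounts of 0.1 and 5, without a filter or with a mean of at least 5 FPKM, with 1.5-fold or 4-fold thresholds, after rescaling by the median ratio (factors 0.998 in WT, 1.0 in L597R and 1.01 in P-Enter) or on the residuals of the regression. Some of these settings called few genes of any kind. Of 10639 genes a pseudocount of 5 called 1 higher and 1 lower in WT against P-Enter, and the 4-fold threshold 5 and 11. In L597R against P-Enter these were 2 and 5, and 7 and 9, and in L597R against WT 0 and 3, and 6 and 9. The filter at 5 FPKM also left out ELK4 (mean 4.96 FPKM), ETV1 (3.48) and ETV4 (3.11). The intervals depended more on the setting. The members with an interval beyond 1.5-fold numbered 0 in all 3 comparisons. With 99% intervals those that left out 1 numbered 1 in WT against P-Enter (3 at 95%), 3 in L597R against P-Enter (4 at 95%) and 1 in L597R against WT (2 at 95%). With the regression value removed they numbered 0, 2 and 1 in the same order; the ratio of ETV1 in L597R against P-Enter then turned to 0.947, and the cause was not tested. Rescaling by the median ratio changed no direction or call of a member's ratio and moved no level beyond its counting interval. Over 10639 genes the size rule called 40 higher and 64 lower genes in WT against P-Enter, but 71 and 120 with a pseudocount of 0.1; in L597R against P-Enter these were 32 and 54, and 77 and 126. The residuals, which cover only 9329 protein-coding genes and so change the genes tested as well, gave 2 and 8, and 2 and 5. No paired analysis was possible because each group had 1 library, and for the same reason no replicate could be left out. Depth limits ETS2, with 1 to 3 reads per library, and ETV4, with 151 to 176.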

Other observations

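Of 15 genes described in other work as ETS targets 14 had rows and 9 passed the filter. The interval of the read ratio lay above 1 for 0 and below 1 for 2 in WT against P-Enter, for 5 and 2 in L597R against P-Enter, and for 6 and 2 in L597R against WT. Over all genes with reads it left out 1 for 15.6%, 27.7% and 21.6% in these comparisons, and over those of at least 1 FPKM for 26.1%, 49.5% and 38.5%. The size rule called 0.978%, 0.808% and 0.724% of 10639 genes. The median differences of the list were -0.03, 0.02 and 0.05, where those of all genes were 0.00, -0.01 and 0.01. MMP3, a protease of the extracellular matrix, was the gene of this list past the size rule, at 4.13 FPKM in L597R against 1.31 in WT (read ratio 3.15, 2.18 to 4.66) and against 0.933 in P-Enter (4.42, 2.82 to 7.23). PLAU, the urokinase plasminogen activator, was lower in both BRAF libraries, at 93.6 FPKM in WT (0.904, 0.866 to 0.944) and 87.0 in L597R (0.841, 0.806 to 0.878) against 103 in P-Enter. PLAUR was at 14.6 FPKM in WT, 15.1 in L597R and 13.6 in P-Enter, and MCL1, a survival protein of the BCL2 family, at 43.9, 44.7 and 44.8 FPKM in the same order. VIM was at 127, 132 and 130 FPKM and CCND1 at 181, 170 and 185 FPKM, also in that order. The immediate-early genes EGR1 and FOS, classical targets of the ternary complex factors, are given after their values were seen. EGR1 was at 2.24 FPKM in WT, 3.53 in L597R and 2.54 in P-Enter (L597R against P-Enter 1.39, 1.09 to 1.78). FOS had 11 reads in WT, 27 in L597R and 5 in P-Enter (L597R against P-Enter 4.32, 1.64 to 14.4), all under 1 FPKM.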
